A study of Mus musculus with 12 samples.

Results

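SMC1 is a smooth muscle population, 1 of 4 that were isolated by FACS from the aorta and perivascular fat of adult mice, and its 3 libraries were set against the 9 libraries of the other populations: Progenitor, Intermediate and SMC2. The members are the genes whose 3 SMC1 libraries all lay above, or all below, all 9 others. Of 19016 genes tested, 1762 lay above (9.27%) and 1358 lay below (7.14%), which makes 3120 members. Over all 33352 rows of the count table, without a filter on low counts, the numbers were 1829 above and 1511 below. All libraries came from wild-type CD-1 males aged 13 weeks, with 3 libraries from each of the populations labelled perivascular Progenitor, perivascular Intermediate, SMC1 and SMC2. No treatment or gene alteration is named for any group. The gates that define each population are not given in the sources used here, and nothing says whether same-numbered libraries share an animal, so p-values measure the spread between these libraries.

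SMC1 held more RNA than any other library of Sost (5.64 ± 0.27 on the log2 scale against the mean of the other groups), of the integrin gene Itga8 (5.14 ± 0.21), of its ligand Npnt (5.56 ± 0.28), of elastin (Eln, 2.94 ± 0.22) and of the contractile genes Cnn1 (4.91 ± 0.22) and Smtn (3.07 ± 0.14). It held less than any other library of the lipase gene Lpl (-4.92 ± 0.35), the fat precursor factor Ebf2 (-4.44 ± 0.22), the transporter Slc1a3 (-5.05 ± 0.22), Hoxc8 (-3.94 ± 0.29) and the chemokine gene Ccl11 (-4.11 ± 0.37). Errors are standard errors derived from edgeR's test, as described below, with 3 libraries a group.

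Smooth muscle cells of the aortic media contract through smooth muscle actin and myosin, and they lay down the elastic lamellae and the basement membrane that hold the wall together. The transcription factor SRF, with its cofactor myocardin, switches on many contractile genes through a short promoter motif, the CArG box. Perivascular fat and the adventitia hold stromal progenitors that make collagen, complement and chemokines, and that can form adipocytes. The series title names the lineage of heat-producing perivascular fat as its question.

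The 250 bases before the RefSeq start site (GRCm38.p6) are printed, as the sequence next to the start of members with a role in the results, for the marker genes Sost and Susd5, for the integrin gene Itga8, for the R-spondin receptor genes Lgr6 and Lgr4, and for the adhesion gene Vcl. The windows are chr11:101967016-101967265 on the minus strand for Sost, chr9:114057104-114057353 on the plus strand for Susd5, and chr2:12301945-12302194 on the minus strand for Itga8. Those of Lgr6, Lgr4 and Vcl are chr1:135105277-135105526 (minus strand), chr2:109917397-109917646 (plus strand) and chr14:20929148-20929397 (plus strand). The RefSeq start of Susd5 lies inside the gene as GENCODE gives it, so most of its window is within that gene, while the other 5 windows lie in front of theirs. Each runs 5′ to 3′ toward the start site, in lower case, with exact CArG boxes in capitals.
Sost: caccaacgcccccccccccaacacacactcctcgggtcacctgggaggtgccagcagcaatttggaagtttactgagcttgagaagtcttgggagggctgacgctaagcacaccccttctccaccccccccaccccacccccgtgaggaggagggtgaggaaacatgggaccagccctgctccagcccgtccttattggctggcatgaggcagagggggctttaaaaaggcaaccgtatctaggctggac
Susd5: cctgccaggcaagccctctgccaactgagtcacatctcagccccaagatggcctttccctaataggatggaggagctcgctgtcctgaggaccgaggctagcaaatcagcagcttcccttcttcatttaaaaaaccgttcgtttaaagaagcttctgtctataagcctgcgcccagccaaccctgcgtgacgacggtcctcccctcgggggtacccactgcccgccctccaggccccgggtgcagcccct
Itga8: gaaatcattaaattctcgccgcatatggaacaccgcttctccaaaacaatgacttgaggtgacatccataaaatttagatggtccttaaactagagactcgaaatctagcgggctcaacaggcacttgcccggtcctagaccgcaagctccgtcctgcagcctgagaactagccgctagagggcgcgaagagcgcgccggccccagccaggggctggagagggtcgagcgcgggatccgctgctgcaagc
Lgr6: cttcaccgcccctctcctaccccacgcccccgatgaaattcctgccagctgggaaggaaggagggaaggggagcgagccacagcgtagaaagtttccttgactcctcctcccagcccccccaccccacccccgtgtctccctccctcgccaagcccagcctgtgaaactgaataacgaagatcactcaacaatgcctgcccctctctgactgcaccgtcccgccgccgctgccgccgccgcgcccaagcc
Lgr4: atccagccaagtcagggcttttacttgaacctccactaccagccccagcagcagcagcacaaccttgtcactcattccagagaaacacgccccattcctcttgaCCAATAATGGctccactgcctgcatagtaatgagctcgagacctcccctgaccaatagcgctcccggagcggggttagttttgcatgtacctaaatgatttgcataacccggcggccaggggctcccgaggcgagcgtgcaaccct
Vcl: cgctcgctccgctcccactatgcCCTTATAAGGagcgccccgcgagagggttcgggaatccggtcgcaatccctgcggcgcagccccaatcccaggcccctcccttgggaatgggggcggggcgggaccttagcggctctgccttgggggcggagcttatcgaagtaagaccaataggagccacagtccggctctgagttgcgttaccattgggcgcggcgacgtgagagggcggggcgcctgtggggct
A CArG box was searched on both strands of 27018 RefSeq windows that also hold the first 50 bases of the transcript, and 425 of them (1.57%) held one. Lgr4 held one that begins 146 bases before the start site, and Vcl held one at 227 bases before it. The windows of Sost, Susd5, Itga8 and Lgr6 held none, nor did those of the contractile genes Acta2 and Cnn1, which are not printed. This says only that these letters are not in these windows. RefSeq windows were matched to under 80% of the members, so the share of members with a motif was not compared with other genes. The printed windows were picked by hand, so how many of them hold a box says nothing about the members as a whole.

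Counts were scaled by library size and edgeR's TMM factors to CPM, the usual unit of bulk expression levels, and each gene was tested by edgeR's quasi-likelihood test with a mean for each of the 4 groups. A difference is the log2 level in SMC1 minus the mean of the log2 levels in the other 3 groups, each weighted equally. It is given ± a standard error derived from the test: the size of the difference divided by the square root of the F statistic. A gene is called higher or lower when its Benjamini-Hochberg adjusted p is under 0.05 over the 19016 genes tested. In this comparison 4280 genes (22.5%) were called higher and 3903 (20.5%) lower, and 1822 (9.58%) and 2637 (13.9%) of them differed by at least 2-fold. Of the members, 1742 of 1762 were called higher (9.16% of all genes tested) and 1329 of 1358 lower (6.99%). Lying apart and being called come from the same libraries, so one is not support for the other. Against each of the 3 other groups on its own, 1165 of the genes above (6.13%) and 962 of those below (5.06%) were called in that direction. Over all genes tested, 1206 (6.34%) were called higher and 1075 (5.65%) lower than each group. With a difference of at least 2-fold from the nearest group, 623 members above (3.28%) and 679 below (3.57%) remained. By pair, 4804 genes (25.3%) were called higher and 4390 (23.1%) lower than Progenitor, 3753 (19.7%) and 4155 (21.9%) than Intermediate, and 3439 (18.1%) and 3139 (16.5%) than SMC2. These pairwise differences share the SMC1 libraries.

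The count totals ran from 13258631 to 22647175 per library, and those of SMC1 were 20252012, 20688096 and 17742172. Log2 profiles of the SMC1 libraries correlated with each other at 0.979 to 0.982, with SMC2 at 0.913 to 0.933, with Intermediate at 0.885 to 0.894 and with Progenitor at 0.850 to 0.876. SMC1 replicate 1 stood above the other 2 SMC1 libraries in the summed CPM of several lists. Leukocyte markers were at 721 CPM in it and at 171 and 179.8 in the others, erythroid and platelet markers at 39.5 against 13.7 and 10.8, adipocyte markers at 420.5 against 267 and 282, endothelial markers at 798 against 548 and 602, and antigen presentation genes at 2559 against 1523 and 1751. Values that rest on that library are given below without it too. In bulk RNA, fewer cells of a type and less RNA per cell cannot be told apart, which holds for every difference below.

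The nearest group, whose mean lay closest to SMC1, was SMC2 for 1010 of the genes above, Intermediate for 624 and Progenitor for 128. Among the genes below, the nearest was SMC2 for 687, Intermediate for 383 and Progenitor for 288. The gap between the extreme SMC1 library and the nearest other library had a median of 0.318 log2 units above and 0.382 below. Many genes lay near the edge of the rule: 400 genes above and 246 below passed by under 0.1 log2 units, and 504 and 331 genes missed by under 0.1. Protein-coding genes made up 88.9% of the genes above, 79.9% of those below and 78.9% of all genes tested.

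**Figure D1:**
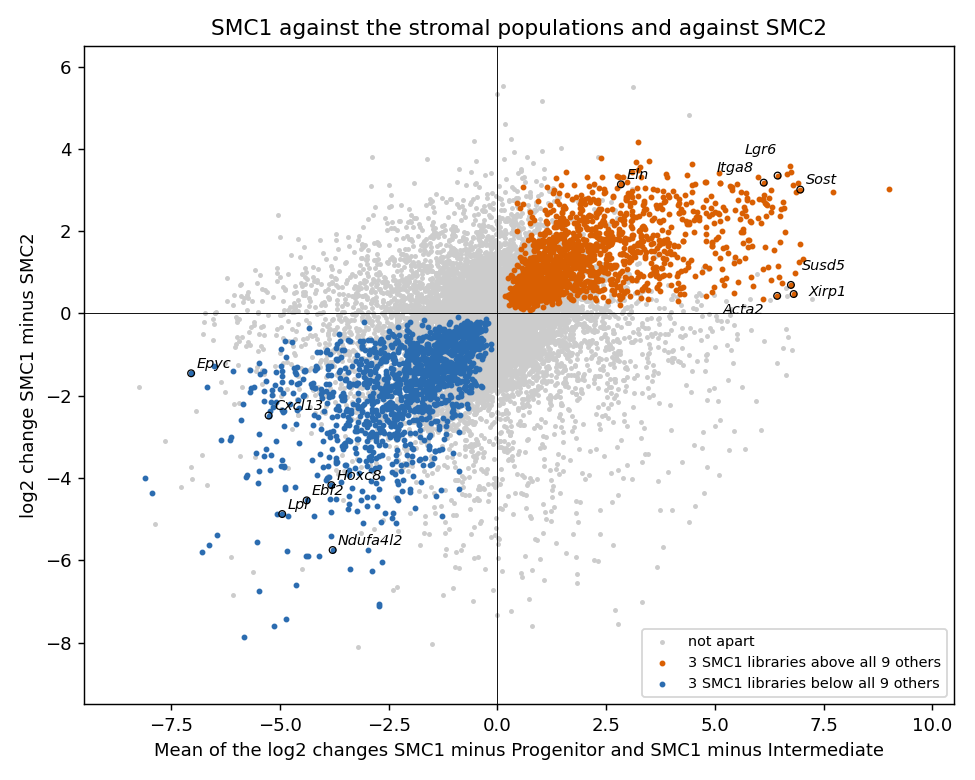
Each point is 1 of 19016 genes; the horizontal axis is the mean log2 change of SMC1 minus Progenitor and SMC1 minus Intermediate, and the vertical axis is the log2 change of SMC1 minus SMC2. Orange points (SMC1 above all 9 other libraries) and blue points (below) fill opposite quadrants because the rule puts them there; Sost, Lgr6, Itga8 and Eln lie at 3.01 to 3.35 on the vertical axis, while Acta2, Xirp1 and Susd5 lie at 0.43 to 0.69.

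The 3 genes given as markers of SMC1 were all above the 9 other libraries. Sost encodes sclerostin, a secreted antagonist of Wnt signalling best known from bone. The gene spans chr11:101962458-101967015, minus strand (GENCODE M21, GRCm38). Its level was 361, 331 and 439 CPM in SMC1, 28.2, 60.6 and 51.8 in SMC2, 2.55, 2.70 and 2.75 in Intermediate and 1.003, 4.73 and 4.86 in Progenitor. The lowest SMC1 library was thus more than 5 times the highest SMC2 library. Sost differed by 5.64 ± 0.27 (adjusted p = 2.06e-10), and by 3.01 ± 0.37 from SMC2 alone (adjusted p = 1.27e-05). Xirp1 (chr9:120013755-120023598, minus strand), an actin-binding protein of striated muscle, stood at 237, 280.3 and 263 CPM in SMC1 and 235, 165 and 163 in SMC2, and under 4 in every Progenitor and Intermediate library. Susd5 (chr9:114057140-114098728, plus strand), a membrane protein with a hyaluronan-binding link domain, stood at 1238, 1014 and 1427 CPM in SMC1 and 935, 774 and 569.5 in SMC2. The SMC1 and SMC2 libraries did not overlap for either gene, but the difference from SMC2 was 0.47 ± 0.28 for Xirp1 (adjusted p = 0.205) and 0.69 ± 0.29 for Susd5 (adjusted p = 0.0694), and neither was called. Sost was called against each of the 3 groups.

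The members named here with the largest differences, which have a mean log2 CPM of at least 4 in SMC1, were led by Mylk4 (chr13:32700834-32783954, minus strand), a kinase of the myosin light chain kinase family. It stood at 189.6, 236 and 228 CPM in SMC1 and at 9.89, 25.7 and 19.5 in SMC2, with a difference of 5.67 ± 0.26 (adjusted p = 6.56e-11). Itga8 (chr2:12106632-12301922, minus strand), the alpha8 integrin chain, and Npnt (chr3:132881745-132950291, minus strand), the matrix protein nephronectin that this integrin binds, were high in the same libraries. Itga8 read 6154, 6938 and 8709.8 CPM in SMC1, 624, 1054 and 732 in SMC2, 123, 158 and 152 in Intermediate and 44.2, 71.1 and 111 in Progenitor. Npnt read 1792, 1572 and 2253 CPM in SMC1, 127, 314 and 206 in SMC2, 14.4, 22.98 and 15.4 in Intermediate and 7.34, 17.5 and 24.6 in Progenitor. For both, SMC2 was the nearest group and the lowest SMC1 library was more than 5 times the highest SMC2 library. Itga8 differed by 5.14 ± 0.21 (adjusted p = 3.12e-13) and Npnt by 5.56 ± 0.28 (adjusted p = 1.53e-10).

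Other genes with the largest differences were receptors, channels and structural proteins. Lgr6, a receptor for R-spondins, read 380.4, 298 and 473 CPM in SMC1 and 23.4, 47.9 and 41.8 in SMC2. Kcnh2, the pore subunit of the ERG potassium channel, read 203, 154 and 224 CPM in SMC1, 72.6, 60.2 and 46.6 in SMC2 and at most 2.27 in any Progenitor or Intermediate library. The serotonin receptor gene Htr1b read 112, 99.8 and 176 CPM in SMC1 and 9.80, 25.04 and 15.7 in SMC2. None of these groups overlapped. The differences were 5.41 ± 0.27 for Lgr6, 5.20 ± 0.23 for Kcnh2, 5.55 ± 0.34 for Htr1b, 5.19 ± 0.26 for the secreted glycoprotein gene Scube3 and 5.19 ± 0.25 for Itih4, a heavy chain of the inter-alpha-trypsin inhibitor family. They were 5.06 ± 0.21 for Tcap, which encodes the titin-capping protein telethonin, and 5.004 ± 0.23 for the connexin gene Gja6, all called.

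Ranked instead by the difference from the nearest group, the leading genes again had SMC2 or Intermediate as that group. Shroom3, an actin-binding protein, differed by 3.42 ± 0.36 from SMC2, its nearest group. The microtubule-associated gene Mtus2 read 156, 158 and 159 CPM in SMC1 and 8.51, 23.1 and 20.9 in SMC2, with 7.02, 10.2 and 10.2 in Intermediate. Dsp, the desmosomal protein desmoplakin, differed by 3.14 ± 0.33 from SMC2 and Chst3, a chondroitin sulfotransferase, by 3.13 ± 0.24. Erbb4, a receptor for neuregulins and some EGF family ligands, read 21.99, 34.0 and 29.7 CPM in SMC1, and its nearest group was Intermediate, with 3.24 ± 0.31. Fbxo40, a ubiquitin ligase adaptor of muscle, also had Intermediate as its nearest group, with 3.09 ± 0.24. Ccdc42 and Sh3rf2 completed this set, at 3.18 ± 0.33 and 3.06 ± 0.32 from SMC2, the nearest group of both.

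**Figure D2:**
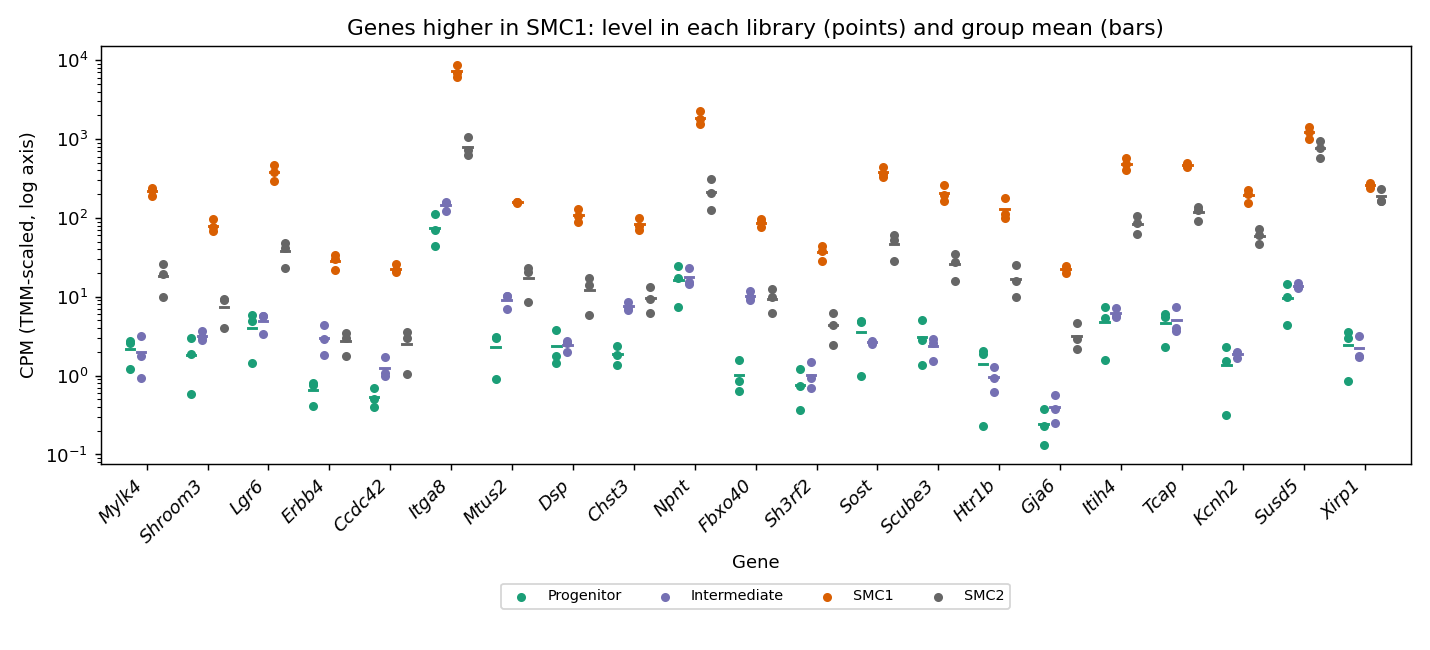
Each point is 1 library's level in CPM on a log axis, and each bar the mean of 3 libraries, for the genes named by either ranking and the 3 marker genes. SMC1 (orange) lies above every other library for each gene, by a wide margin for Sost, Itga8 and Mylk4 and by a narrow one for Xirp1 and Susd5.

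Contractile smooth muscle genes were high in both smooth muscle populations. All 28 genes of the list were called higher against the mean of the 3 others (22.5% of all genes tested were), with a median of 3.22 against -0.01 for all genes. The median against SMC2 alone was 0.42, and 13 of the 28 lay above all 9 others. Acta2, smooth muscle actin, read 21050, 16910 and 20494 CPM in SMC1 and 16652, 14942 and 11929 in SMC2, and Progenitor and Intermediate libraries lay between 96.8 and 299. Smooth muscle myosin, Myh11, chosen after its values were seen, read 8092, 7617 and 9664 CPM in SMC1 and 8336, 5636 and 5052 in SMC2, so SMC2 replicate 1 lay inside the SMC1 range and the gene is no member. Neither was called against SMC2, at 0.43 ± 0.29 (adjusted p = 0.268) and 0.42 ± 0.34 (adjusted p = 0.362).

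Within the contractile list, 10 genes were called higher than in each other group. Cnn1, the actin-binding protein calponin, read 3450.4, 2961 and 2808 CPM in SMC1 against 767, 1076 and 933 in SMC2, 19.9, 39.8 and 31.5 in Intermediate and 19.3, 52.1 and 42.1 in Progenitor. Smtn, smoothelin, read 1391, 1028 and 1549 CPM against 360.2, 354 and 344 in SMC2, and the actin cross-linker Flna read 12101, 12538 and 15096 against 6495, 5112 and 4207. SMC1 and SMC2 were well separated for these genes, with differences of 1.73 ± 0.30, 1.91 ± 0.20 and 1.33 ± 0.26. Myocd, which encodes myocardin, read 187, 243 and 316 CPM in SMC1 and 143, 127 and 107 in SMC2, a difference of 0.98 ± 0.30 (adjusted p = 0.0179). Vcl, vinculin, which ties integrins to actin and whose promoter window holds the CArG box printed above, differed by 1.02 ± 0.20. The windows of Acta2 and Cnn1 held no exact CArG box. The other members were Synpo2, Pdlim7, Lmod1 and Myl6, which were called against each group, and Actg2 and Ppp1r14a, which were not called against SMC2.

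Genes of the striated muscle and Z-disc list, not all of them particular to striated muscle, were more often called higher than lower against the mean of the other groups. Of 38 list genes tested (44 in the table), 20 were called higher and 5 lower, against 22.5% and 20.5% of all genes tested. The median was 0.89, and 14 lay above and 1 below all 9 others (9.27% and 7.14% of all genes tested). By group, the median was 1.88 against Progenitor, 1.52 against Intermediate and 0.02 against SMC2. Without SMC1 replicate 1 the list held 20 higher and 3 lower. Myoz2, calsarcin of the Z-disc, read 65.1, 66.3 and 51.9 CPM in SMC1, 3.82, 12.9 and 11.9 in SMC2, 0.435, 0.502 and 0.703 in Intermediate and 0.638, 1.80 and 1.71 in Progenitor. Myom1, myomesin of the M-band, read 346, 593 and 420.0 CPM against 285, 252 and 197 in SMC2. The small heat shock gene Hspb7 read 1309, 1250.3 and 1698 against 446, 536 and 393, and its relative Hspb6 331, 235 and 355 against 230.3, 190.5 and 161. The groups did not overlap for any of the 4. Other genes above were the Z-disc genes Actn2 (4.11 ± 0.33), Nrap (3.14 ± 0.41) and Ankrd1 (3.20 ± 0.25), the LIM-domain genes Csrp2 (2.41 ± 0.14) and Fhl1 (1.77 ± 0.15), and Casq1 (4.04 ± 0.22), calsequestrin of the sarcoplasmic reticulum. Xirp1, Tnnt2 (1.73 ± 0.29), Myl4 (0.97 ± 0.20) and Myoz1 (1.83 ± 0.34) completed the list's members above. Ldb3, a Z-disc protein, was called higher at 3.86 ± 0.19 but differed from SMC2 by -0.66 ± 0.24 (adjusted p = 0.0381). The 1 gene below all others was the fast skeletal troponin gene Tnnt3, at -1.85 ± 0.35.

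Basement membrane and matrix adhesion genes had the second highest share called higher among the lists other than marker lists. Of 47 genes, 33 were called higher and 8 lower, with a median of 1.02 (22.5% and 20.5% of all genes tested were called). Above all 9 others lay 16 and below them 2, against 9.27% and 7.14% of all genes tested. Integrin chains were prominent among those above. Itga5, of the fibronectin receptor, read 677, 553 and 702 CPM in SMC1, 53.0, 78.2 and 61.6 in SMC2, 95.6, 76.0 and 75.4 in Intermediate and 140.1, 164 and 233 in Progenitor. Itga9 read 1082, 931 and 1330.1 CPM against 238, 241 and 237 in its nearest group, Intermediate, and Itgb3, of the vitronectin receptor, 173, 162 and 235 against 27.5, 30.5 and 50.1 in Progenitor. The common beta chain Itgb1 read 3347, 3531 and 3537 CPM against 2014, 2060.5 and 1606 in SMC2. All 4 separated SMC1 from every other library, and Itga3 (3.25 ± 0.16), Itgb8 (1.53 ± 0.18) and Itga10 (1.602 ± 0.30) did so too.

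Members of the dystrophin-linked sarcoglycan complex and of the basement membrane itself were also above. Sgcd differed by 2.21 ± 0.16, Sgcb by 0.89 ± 0.15 and the complex's partner sarcospan, Sspn, by 0.74 ± 0.14. Col18a1, a basement membrane collagen, read 3316, 2062 and 3244 CPM against 749.8, 669 and 599.7 in SMC2. The heparan sulfate proteoglycan genes Hspg2 (perlecan) and Agrn (agrin) differed by 1.36 ± 0.19 and 1.81 ± 0.17. In the other direction, the laminin chain Lamb1 and the nidogen Nid2 lay below all 9 others, at -2.90 ± 0.25 and -2.21 ± 0.31.

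Elastin separated SMC1 from all other populations, while the list of elastic fibre genes did not move as one. Eln (chr5:134702593-134747323, minus strand) read 5388, 3759.9 and 4806 CPM in SMC1, 2364, 1706 and 1232 in Intermediate, 347, 723 and 517 in SMC2 and 150.0, 274 and 295 in Progenitor. The nearest group was Intermediate, at 1.40 ± 0.30 (adjusted p = 8.35e-04), not SMC2, at 3.14 ± 0.32. Ltbp1, which anchors latent TGF-beta in the matrix, also had Intermediate as its nearest group, with 2168, 2248 and 2927 CPM in SMC1, 1047, 864 and 853 in Intermediate, 314, 318 and 569 in Progenitor and 358, 491 and 319.9 in SMC2. These were the only 2 of 23 list genes above all 9 (9.27% of all genes tested were above). Of the 23, 10 were called higher and 8 lower (22.5% and 20.5% of all genes tested), with a median of 0.24. Without SMC1 replicate 3, 6 were higher. The median was -0.54 against Progenitor, -1.03 against Intermediate and 1.84 against SMC2. The fibulin gene Fbln1 and the ADAMTS-like gene Adamtsl2 were lower, at -3.32 ± 0.35 and -2.97 ± 0.28, and neither was a member.

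Of 40 interstitial matrix genes, 9 were called higher and 21 lower against the mean of the other groups (22.5% and 20.5% of all genes tested). The list held 3 genes above and 4 below all 9 libraries, against 9.27% and 7.14% of all genes tested. Its median was -0.56. The sign differed by group: the median was -1.58 against Progenitor, -2.03 against Intermediate and 1.42 against SMC2. Tnc, tenascin C, read 418, 437 and 584 CPM in SMC1, 231, 185 and 148 in SMC2, 23.2, 24.2 and 26.8 in Intermediate and 2.96, 5.33 and 15.1 in Progenitor. Postn, periostin, read 2613, 2903 and 2399 CPM in SMC1, 1126, 1471 and 1150.3 in SMC2, 1207, 667 and 998 in Progenitor and 119, 115 and 114 in Intermediate. Both lay above, as did the hyaluronan link protein Hapln1 (2.41 ± 0.30). Below all 9 were the small proteoglycans Aspn (-2.64 ± 0.18) and Fmod (-3.42 ± 0.31), the procollagen enhancer Pcolce (-3.49 ± 0.26) and the collagen chain Col5a3 (-3.15 ± 0.26).

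Genes that regulate calcification of the vessel wall included 4 above and 1 below all 9 libraries, against 9.27% and 7.14% of all genes tested. Of 21 tested (26 in the table), 8 were called higher and 7 lower, against 22.5% and 20.5% of all genes tested. Beside Sost and Itih4, the bone sialoprotein gene Ibsp read 33.2, 25.5 and 22.96 CPM in SMC1, 3.82, 5.24 and 6.90 in SMC2 and under 1 in every Progenitor and Intermediate library. Tnfrsf11b, osteoprotegerin, a decoy receptor that blocks bone resorption, read 128, 142 and 107 CPM in SMC1, 47.7, 31.7 and 32.8 in Intermediate, 7.91, 15.9 and 9.60 in SMC2 and 4.83, 4.93 and 4.67 in Progenitor. It is another gene whose nearest group was Intermediate, at 1.75 ± 0.22. The homeobox gene Msx1 lay below, at -1.13 ± 0.17.

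Wnt pathway genes were split evenly: of 53 tested (57 in the table), 19 were called higher and 19 lower (22.5% and 20.5% of all genes tested). The median was -0.15, or 0.10 against SMC2 alone. Above all 9 libraries lay 9 genes and below them 7, against 9.27% and 7.14% of all genes tested. Those above all 9 included secreted antagonists and receptors. Wif1, Wnt inhibitory factor, read 77.9, 51.6 and 52.3 CPM in SMC1, 6.07, 14.6 and 13.3 in SMC2, 3.36, 1.57 and 2.49 in Intermediate and 1.69, 1.40 and 0.568 in Progenitor. Dkk3, of the Dickkopf family, read 970.4, 899 and 1114 CPM in SMC1 and 760.4, 541 and 555 in Intermediate, its nearest group. Sost, Wif1 and Dkk3 thus lay above together, at 5.64 ± 0.27, 4.21 ± 0.24 and 2.06 ± 0.19. Of the ligands, Wnt16 was above, with 23.1, 23.6 and 28.2 CPM in SMC1 and 1.61, 5.68 and 3.78 in SMC2, while Wnt11 (-3.33 ± 0.24), Wnt4 (-2.13 ± 0.30) and Wnt5b (-1.27 ± 0.18) were below. Of the receptors, Lgr6, Lgr4 (0.93 ± 0.15), Fzd6 (1.69 ± 0.15), Fzd8 (1.53 ± 0.12) and Fzd5 (0.75 ± 0.21) were above, and Fzd4 (-1.45 ± 0.18) and Ror2 (-3.35 ± 0.21) were below. The R-spondin ligand gene Rspo1 (-2.74 ± 0.23) and the Dishevelled-binding antagonist Nkd2 (-2.70 ± 0.20) were below as well.

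TGF-beta and BMP genes moved in both directions. Of 43 tested (46 in the table), 15 were called higher and 13 lower, against 22.5% and 20.5% of all genes tested. The list held 9 genes above and 4 below all 9 libraries (9.27% and 7.14% of all genes tested). Its median was -0.26, although it was above 0 against each group alone (0.19 for Progenitor, 0.14 for Intermediate and 0.57 for SMC2). The receptor genes Tgfbr1 (1.77 ± 0.15), Bmpr1a (1.41 ± 0.16) and Bmpr1b (3.10 ± 0.20) lay above all 9 others. Bmpr1b read 61.7, 84.1 and 92.1 CPM in SMC1, 17.6, 16.7 and 20.2 in Intermediate, 6.17, 15.9 and 11.1 in SMC2 and 2.78, 4.0 and 5.18 in Progenitor. The ligand gene Bmp3 read 49.1, 54.0 and 77.7 CPM in SMC1 and at most 11.3 in any other library, and the ligand Tgfb2 differed by 1.262 ± 0.15. Bmp3 and Bmpr1b had no other library within a factor of 2. The intracellular inhibitor Smad6 differed by 0.99 ± 0.15, the pseudoreceptor Bambi by 0.56 ± 0.12 and the activin antagonist Fstl3 by 2.29 ± 0.17. The secreted antagonists Fst (-3.22 ± 0.22) and Chrdl1 (-2.12 ± 0.18) lay below, with the ligand Bmp5 (-3.48 ± 0.46).

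Of 19 Notch pathway genes tested (20 in the table), 10 were called higher and 3 lower, against 22.5% and 20.5% of all genes tested. The median was 0.80, or 0.09 against SMC2 alone. All 9 libraries lay below SMC1 for 4 genes, against 9.27% of all genes tested. The receptor Notch2 (0.85 ± 0.14), the ligand Jag2 (1.65 ± 0.37), the DNA-binding partner Rbpj (0.92 ± 0.12) and the coactivator Maml2 (1.13 ± 0.13) lay above all 9 libraries. The target genes Hey2 and Heyl were called higher at 1.53 ± 0.16 and 1.31 ± 0.16 but did not lie above all SMC2 libraries, with differences from SMC2 of -0.20 ± 0.21 and 0.09 ± 0.21.

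Axon guidance and neural adhesion genes gave 21 higher and 18 lower of 53 tested (54 in the table), against 22.5% and 20.5% of all genes tested. The median was -0.17, or 0.35 against SMC2 alone. Above all 9 libraries lay 12 genes and below them 5, against 9.27% and 7.14% of all genes tested. Ncam1, the neural cell adhesion molecule, read 402, 359 and 556 CPM in SMC1, 31.1, 76.2 and 66.8 in SMC2, 9.63, 7.72 and 8.18 in Intermediate and 4.33, 9.93 and 10.8 in Progenitor. Unc5c, a netrin receptor, read 36.9, 43.7 and 40.5 CPM in SMC1 and 4.003, 10.2 and 8.04 in SMC2. Both stood far above every other library. Among secreted semaphorins, Sema3a (2.72 ± 0.25), Sema3d (1.86 ± 0.18), Sema3e (2.93 ± 0.21), Sema3f (2.97 ± 0.19) and Sema3g (1.45 ± 0.34) all lay above, as did the transmembrane Sema5a (1.33 ± 0.13) and the semaphorin coreceptor Plxna4 (2.14 ± 0.17). Sema3f read 308, 184 and 385 CPM in SMC1, 108, 96.1 and 89.4 in SMC2, 41.3, 38.6 and 35.7 in Intermediate and 8.02, 15.3 and 18.4 in Progenitor. Of the ephrins, Efna5 (2.43 ± 0.21) and Efnb2 (2.40 ± 0.18) were above and Efnb1 (-0.85 ± 0.16) below. The netrin Ntn4 (-2.40 ± 0.19) and the ephrin receptor Epha4 (-1.06 ± 0.16) were below, while the receptor Epha7 (1.35 ± 0.17) was above.

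Potassium channel genes were called higher in 20 and lower in 12 of 40 tested (43 in the table), against 22.5% and 20.5% of all genes tested. The median was 0.87, and -0.64 against SMC2 alone. The list held 8 genes above and 2 below all 9 libraries (9.27% and 7.14% of all genes tested). The pore and the smooth muscle beta subunit of the large-conductance calcium-activated channel, which relaxes smooth muscle, lay above all 9. The pore gene Kcnma1 read 158, 170.3 and 195 CPM in SMC1, 46.0, 55.7 and 48.1 in SMC2, 29.9, 25.1 and 29.1 in Intermediate and 4.19, 5.07 and 5.62 in Progenitor. The beta subunit gene Kcnmb1 read 503, 496 and 568 CPM in SMC1 and 258, 243 and 202 in SMC2. They differed from SMC2 by 1.81 ± 0.16 and 1.16 ± 0.26, both called. The voltage-gated Kcnc4 (4.13 ± 0.32) and Kcnd3 (1.38 ± 0.20) and the inward rectifier Kcnj15 (4.01 ± 0.23) were above too. Kcnab1, a channel beta subunit, was called higher at 3.25 ± 0.13 but differed from SMC2 by -0.01 ± 0.18. Below all 9 were the tandem-pore channel Kcnk5 (-2.17 ± 0.23) and the channel-interacting Kcnip3 (-1.18 ± 0.16).

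Calcium handling genes were called higher in 19 and lower in 7 of 37 tested (41 in the table), against 22.5% and 20.5% of all genes tested. The median was 0.66, and -0.51 against SMC2 alone. The list held 6 genes above and 1 below all 9 libraries (9.27% and 7.14% of all genes tested). The junctophilins Jph2 and Jph1, which hold the sarcoplasmic reticulum close to the surface membrane, lay above, at 3.80 ± 0.21 and 1.87 ± 0.17. Jph2 read 258, 184 and 245 CPM in SMC1 and 134, 95.2 and 96.2 in SMC2. The channel accessory genes Cacna2d1 (1.46 ± 0.12) and Cacnb3 (1.11 ± 0.17) were above, and so was Asph (1.29 ± 0.14). The T-type calcium channel gene Cacna1g lay below, with 0.763, 0.373 and 0.469 CPM in SMC1 against 39.7, 28.5 and 28.4 in SMC2 and 19.1, 27.4 and 17.6 in Intermediate. It differed by -4.87 ± 0.30 (adjusted p = 6.66e-11), and no library overlapped.

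Receptors and enzymes that set vascular tone divided almost evenly, with 22 higher and 21 lower of 53 tested (56 in the table). Over all genes tested the shares were 22.5% and 20.5%. The list held 10 genes above and 9 below all 9 libraries (9.27% and 7.14% of all genes tested). Its median against SMC2 alone was -0.94. Both angiotensin type 1 receptor genes were members, on opposite sides. Agtr1a read 2.95, 1.91 and 2.99 CPM in SMC1, 97.4, 69.6 and 60.3 in SMC2, 11.9, 8.85 and 17.2 in Intermediate and 24.4, 15.2 and 18.5 in Progenitor. Agtr1b read 17.1, 15.99 and 13.8 CPM in SMC1, 2.76, 3.21 and 1.5 in SMC2, 5.65, 5.84 and 8.49 in Intermediate and 0.547, 0.867 and 0.758 in Progenitor. The differences were -3.35 ± 0.26 (adjusted p = 2.37e-09) and 2.77 ± 0.20 (adjusted p = 4.57e-10). The reads of such close paralogs can be split between them by the counting, so both are uncertain to that extent.

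Serotonin receptors Htr1b and Htr2a (2.98 ± 0.21) were above, as were the thromboxane receptor Tbxa2r (2.12 ± 0.17), the adenosine receptor Adora1 (4.09 ± 0.27) and the nucleotide receptor P2ry6 (1.23 ± 0.17). The adrenergic receptor gene Adra1d read 6.16, 4.52 and 5.74 CPM in SMC1 and 1.89, 2.03 and 1.68 in SMC2, and the Progenitor and Intermediate groups held 3 reads of it each. Rgs5, a brake on G protein signalling and a mural cell marker, read 1201, 1836 and 1564 CPM in SMC1 and 438, 629 and 445 in SMC2. Of the cGMP pathway, which relaxes smooth muscle, genes for both kinds of cyclase were above: the soluble guanylate cyclase subunit Gucy1b1 (3.01 ± 0.13) and the natriuretic peptide receptor Npr1 (2.95 ± 0.21). Prkg2, which encodes a cGMP-dependent kinase but not the only one, was below, with 0.611, 0.513 and 0.176 CPM in SMC1 against 84.0, 56.8 and 46.7 in SMC2. Prostaglandin receptors lay below: Ptger2 (-4.17 ± 0.49), Ptger4 (-1.81 ± 0.18) and the prostacyclin receptor Ptgir (-3.45 ± 0.23). The vasopressin receptor Avpr1a read 2.29, 0.979 and 1.23 CPM in SMC1, 8.70, 10.3 and 8.16 in SMC2, 89.9, 77.3 and 94.6 in Intermediate and 80.3, 89.2 and 109 in Progenitor, a difference of -4.80 ± 0.23. Adora2b (-1.63 ± 0.20) and P2ry14 (-2.87 ± 0.33) were also below. The purinergic channel P2rx1 was called higher at 3.09 ± 0.16 while its difference from SMC2 was -2.85 ± 0.22 (adjusted p = 3.35e-09).

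**Figure D3:**
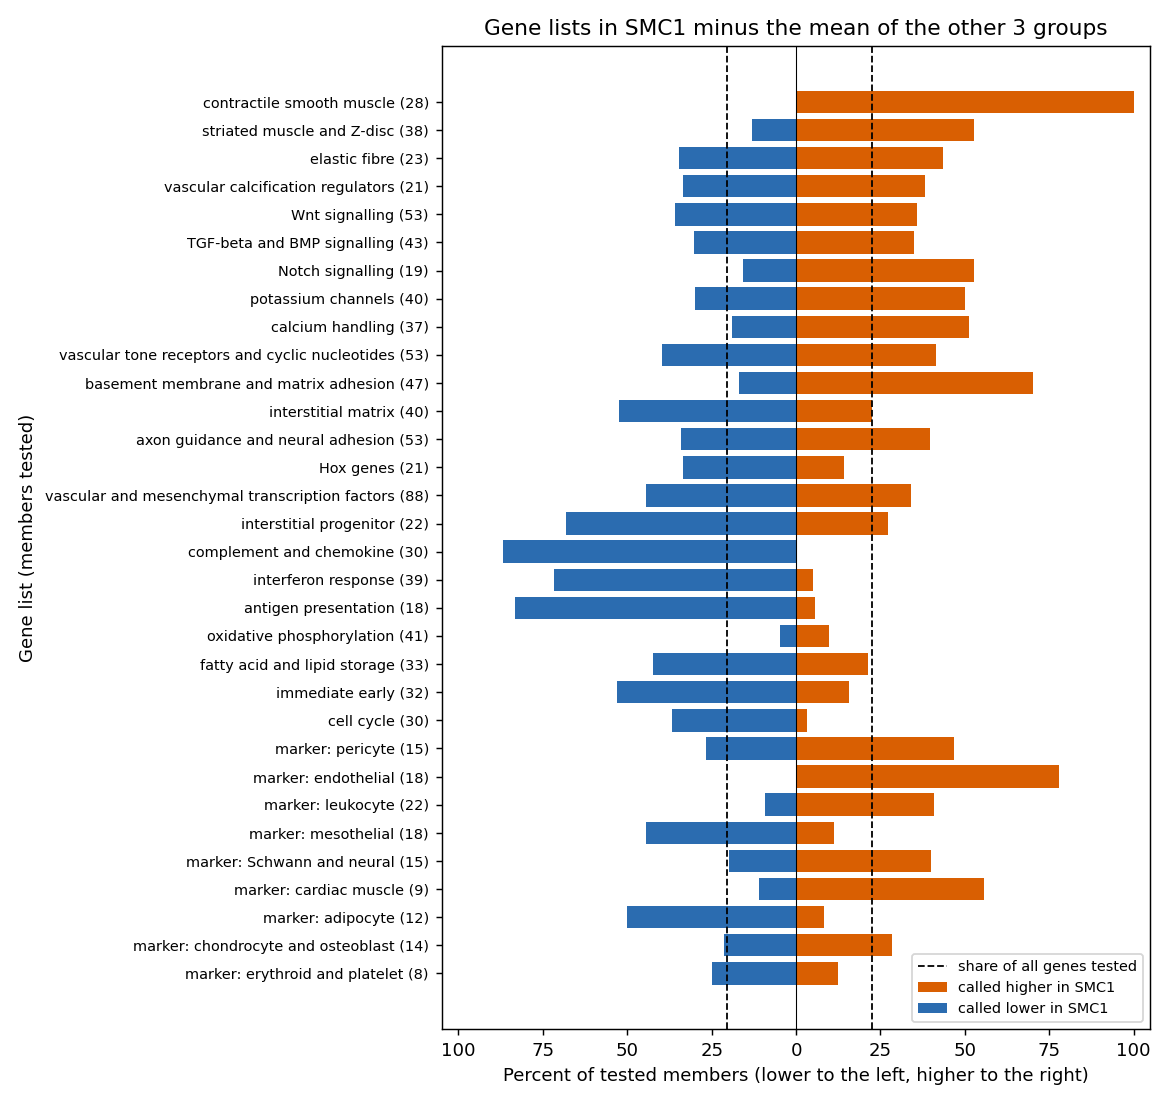
Bars give the percent of each list's tested genes called higher (orange, to the right) or lower (blue, to the left) in SMC1 against the mean of the other 3 groups, with the number tested in brackets; dashed lines mark 22.5% and 20.5%, the shares of all genes tested. All 28 contractile genes were higher, and complement and chemokine genes were lower in 26 of 30.

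Among the members below with a mean log2 CPM of at least 4 in their highest other group, the small proteoglycan gene Epyc stood lowest of those named here, at -5.18 ± 0.44. It was not called against SMC2, where it read 0.552, 0.741 and 0.420 CPM against 0.255, 0.187 and 0.176 in SMC1. Slc1a3 (chr15:8634124-8710764, minus strand), a glutamate and aspartate transporter, read 1.43, 1.21 and 2.11 CPM in SMC1, 20.7, 30.6 and 31.2 in SMC2, 84.9, 78.1 and 81.9 in Intermediate and 65.0, 56.8 and 67.1 in Progenitor. Adcyap1r1, the receptor of the neuropeptide PACAP, read 1.17, 0.979 and 0.527 CPM in SMC1 and between 16.5 and 42.4 in the other 9 libraries. Steap4, a metalloreductase of adipose tissue and pericytes, read 19.4, 11.2 and 15.3 CPM in SMC1, 159, 168 and 155 in SMC2, 574, 368 and 434 in Intermediate and 1396, 789 and 1166 in Progenitor. All 3 were far below every other population, with differences of -5.05 ± 0.22 (adjusted p = 3.19e-13), -4.85 ± 0.30 (adjusted p = 8.06e-11) and -4.83 ± 0.25 (adjusted p = 4.66e-12). The alcohol dehydrogenase Adh1 (-4.64 ± 0.29), Tmem100 (-4.62 ± 0.31), the CXCL12 scavenger receptor Ackr3 (-3.92 ± 0.24), the peptidase gene Mme (-3.83 ± 0.33) and Itih5 (-3.85 ± 0.21) lay below as well. Itih5 lay below and its relative Itih4 above.

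Some of the lowest genes moved with a single SMC1 library. The apolipoprotein gene Apod was lower, at -5.05 ± 0.43 with all libraries and -5.70 without SMC1 replicate 1. The carboxylesterase Ces1d was lower, at -4.56 ± 0.30, and at -5.46 without that replicate, Ms4a4d was at -4.77 ± 0.30 and -5.36, and the endothelin gene Edn3 was at -4.70 ± 0.36 and -5.68.

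Genes of fat storage gave 7 higher and 14 lower of 33 tested (34 in the table), against 22.5% and 20.5% of all genes tested. The overall median was -0.75. The median was 0.04 against Progenitor, 0.36 against Intermediate and -1.56 against SMC2. The list held 3 genes above and 3 below all 9 libraries, against 9.27% and 7.14% of all genes tested. Lpl (chr8:68880491-68907448, plus strand), lipoprotein lipase, read 31.1, 10.7 and 13.9 CPM in SMC1, 644, 517 and 476 in SMC2, 238, 162 and 158 in Intermediate and 2282, 1327 and 1693 in Progenitor. SMC1 replicate 1 was the highest SMC1 library and still below all others: the difference was -4.92 ± 0.35 (adjusted p = 4.00e-09), and -5.54 without that replicate. Its inhibitor Angptl4 read 25.9, 15.2 and 10.95 CPM in SMC1 and at least 150 in every other library, and the triglyceride synthesis gene Dgat2 differed by -1.23 ± 0.14. Above all 9 lay Plin4, a lipid droplet coat protein, with 179, 182 and 218 CPM in SMC1 and 55.7, 51.1 and 40.9 in SMC2, the acyl-CoA synthetase Acsl1 (2.66 ± 0.15) and Cidea (3.47 ± 0.36). Cidea, a brown fat marker, was low in all groups, at 8.91, 8.58 and 7.38 CPM in SMC1 and 3.08, 4.84 and 4.56 in SMC2, was not called against SMC2 (adjusted p = 0.0782), and its change was 4.26 without Intermediate replicate 2.

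Transcription factors were called lower in 39 and higher in 30 of 88 tested (93 in the table), against 20.5% and 22.5% of all genes tested. Of the list, 21 lay below and 9 above all 9 libraries, against 7.14% and 9.27% of all genes tested. By group, the median was -0.08 against Progenitor, -0.25 against Intermediate and -0.55 against SMC2. Ebf2 (chr14:67233292-67430918, plus strand), a factor of brown and beige fat precursors, read 5.04, 2.94 and 2.81 CPM in SMC1, 106, 76.9 and 70.0 in SMC2, 48.5, 42.3 and 42.3 in Intermediate and 142, 111 and 131 in Progenitor. It differed by -4.44 ± 0.22 (adjusted p = 2.13e-12), and its relative Ebf3 by -2.43 ± 0.24. The adipogenic factors Cebpa (-2.41 ± 0.33) and Cebpb (-1.20 ± 0.17) were below. Tcf21, a factor of adventitial and epicardial mesenchyme, was below at -4.63 ± 0.37, and -5.30 without SMC1 replicate 3. Mesenchymal factors below also included Meox2 (-3.17 ± 0.22), Foxd1 (-3.26 ± 0.38), Osr2 (-3.03 ± 0.33), Twist1 (-1.62 ± 0.19), Snai1 (-2.30 ± 0.35) and Zeb2 (-0.87 ± 0.14). Klf4 (-1.17 ± 0.23), which can repress contractile genes, and Klf5 (-1.52 ± 0.17) were below, and Klf15 (1.36 ± 0.13) was above.

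The factors above included developmental regulators. The homeobox gene Nkx2-3 read 2.09, 1.07 and 2.64 CPM in SMC1 and 0.460, 0.494 and 0.900 in SMC2. Foxc1 (1.68 ± 0.13) and Foxc2 (1.63 ± 0.16), forkhead factors of vascular development, Tbx18 (1.61 ± 0.13), a T-box factor of mural cells, Mef2a (1.32 ± 0.13) and Tead3 (2.57 ± 0.27) were above with Klf15 and Myocd.

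Hox genes record position along the body axis, and 4 of the 5 members below all 9 libraries came from the HoxC cluster. Of 21 tested (28 in the table), 3 were called higher and 7 lower, against 22.5% and 20.5% of all genes tested. None lay above, and the 5 below compare with 7.14% of all genes tested. Hoxc8 (chr15:102990607-102994111, plus strand) read 0.713, 0.653 and 0.469 CPM in SMC1, 13.0, 9.83 and 10.9 in SMC2, 11.2, 10.2 and 7.60 in Intermediate and 7.52, 10.7 and 5.68 in Progenitor. Hoxc5 read 0.763, 0.653 and 0.351 CPM in SMC1 and at least 3.96 in every other library. Both lay far below, at -3.94 ± 0.29 (adjusted p = 4.67e-10) and -3.75 ± 0.30 (adjusted p = 1.73e-09). Hoxc6 differed by -1.42 ± 0.23, Hoxa5 by -1.22 ± 0.15, and Hoxc4 by -2.12 ± 0.43, or -3.32 without SMC1 replicate 3. The list summed to between 79.4 and 133 CPM in a library, and neighbouring genes of a cluster can share transcripts.

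Complement and chemokine genes had the highest share called lower of any list: 26 of 30, none higher, with a median of -2.72 (20.5% of all genes tested were lower). Of its genes, 13 lay below all 9 libraries, against 7.14% of all genes tested. Summed over the list, the level was 1827 to 2199.7 CPM in SMC1, 3150.1 to 3459 in SMC2, 22074 to 26769 in Progenitor and 24899 to 27031 in Intermediate. Serping1, the C1 inhibitor, differed by -3.19 ± 0.22 and the complement protease C1s1 by -2.53 ± 0.16. The cytokine Il6 read 17.4, 9.51 and 8.61 CPM in SMC1, 141, 153 and 144 in SMC2, 96.7, 67.4 and 104 in Intermediate and 275, 276 and 246 in Progenitor. The eotaxin gene Ccl11 read 8.25, 4.24 and 3.16 CPM in SMC1, 13.2, 27.2 and 21.6 in SMC2, 47.5, 45.8 and 26.1 in Intermediate and 1285, 738 and 677 in Progenitor. For both, SMC1 lay below every library, and Progenitor was the highest group. Ccl2 (-3.63 ± 0.23), Ccl7 (-4.04 ± 0.29), Cxcl1 (-3.52 ± 0.29), Cxcl12 (-2.64 ± 0.19) and Cxcl10 (-2.30 ± 0.24) were below as well. Cxcl13 was lower, at -4.33 ± 0.64, or -5.28 without SMC1 replicate 1, whose level was 9.47 CPM against 2.28 and 2.87 in the other 2.

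Interferon response genes were called lower in 28 of 39, with 11 below all 9 libraries, against 20.5% and 7.14% of all genes tested. Their median was -1.05. By group, the median was -1.43 against Progenitor, -0.77 against Intermediate and -0.30 against SMC2. The 2 called higher were 0 without any one of Intermediate replicate 2, Progenitor replicate 2, SMC1 replicates 2 and 3 and SMC2 replicates 1 and 3, and 1 without Intermediate replicate 1 or SMC1 replicate 1. The factors Irf1, Irf7 and Irf9 lay below at -1.86 ± 0.16, -1.48 ± 0.18 and -1.05 ± 0.13. Irf1 read 116, 104 and 82.2 CPM in SMC1, 301, 253 and 323 in Intermediate, 336, 293 and 308 in Progenitor and 611, 532 and 463 in SMC2, so SMC2 was the highest group. Other interferon-induced genes below included Ifitm3 (-1.76 ± 0.20), Isg15 (-1.35 ± 0.22) and Isg20 (-2.63 ± 0.19). Of 18 antigen presentation genes, 15 were lower (20.5% of all genes tested were), with a median of -1.07. That median was -1.76 against Progenitor, -1.53 against Intermediate and only -0.10 against SMC2. The summed level overlapped SMC2, at 1523 to 2559 CPM in SMC1 and 1693 to 1984 in SMC2. The 1 gene called higher was 0 when any library other than Intermediate replicate 3, Progenitor replicate 1 or SMC2 replicate 2 was left out. H2-K1, a class I heavy chain, read 228, 139 and 116 CPM in SMC1 and 286, 282 and 285 in SMC2, while H2-T23 was lower overall at -2.02 ± 0.21 but differed from SMC2 by -0.05 ± 0.23. Class I genes are near-identical copies in part, so their counts are uncertain.

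Of 22 genes of interstitial progenitors, 15 were called lower and 6 higher (20.5% and 22.5% of all genes tested), with a median of -2.12. Against SMC2 alone the median was 0.53, and the list summed to 2850.3 to 3733 CPM in SMC1 and 639 to 929.5 in SMC2. Pdgfra, the PDGF receptor alpha gene of stromal cells, was lower, at -2.71 ± 0.21, but was higher than in SMC2, by 1.85 ± 0.23. The hyaluronan synthase Has1 (-3.57 ± 0.25) and Tnfaip6 (-2.91 ± 0.24), which modifies hyaluronan, lay below all 9. Limch1 read 207, 257 and 273 CPM in SMC1, 49.8, 56.6 and 49.98 in SMC2, 15.6, 20.5 and 17.4 in Progenitor and 7.46, 10.2 and 7.03 in Intermediate, and lay above with Efhd1 (3.60 ± 0.18) and Uchl1 (2.92 ± 0.24). Limch1, Efhd1 and Uchl1 were 3 of the 6 list genes called higher.

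Immediate early genes, which respond within minutes to growth factors or to tissue dissociation, were lower in 17 and higher in 5 of 32. Over all genes tested these shares were 20.5% and 22.5%. The list's median was -0.45. Myc read 36.8, 27.6 and 29.1 CPM in SMC1, 205, 169 and 168 in SMC2, 114, 70.1 and 86.5 in Intermediate and 284, 275 and 309.5 in Progenitor. Socs3 (-1.24 ± 0.17), Junb (-0.996 ± 0.17), Nr4a3 (-1.48 ± 0.17), Ier3 (-0.77 ± 0.18), Egr2 (-0.76 ± 0.15) and Zfp36 (-0.84 ± 0.15) were also below all 9 libraries. In the other direction Ccn1, a matricellular target of mechanical signalling, read 2732, 3202 and 2815 CPM in SMC1 and 1882, 1318 and 1167 in Intermediate, its nearest group. Its relative Ccn2 was higher by 2.33 ± 0.23 but overlapped Intermediate.

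Cell cycle genes gave 11 lower and 1 higher of 30, against 20.5% and 22.5% of all genes tested. The number lower was 3 without SMC1 replicate 3 and 6 without SMC1 replicate 2. The 1 higher gene, the replication licensing factor Mcm6, lay above every library, with 142, 153 and 144 CPM in SMC1 and at most 50.4 elsewhere. Ccne1 (-1.23 ± 0.19), Cenpa (-1.39 ± 0.24) and Prc1 (-1.33 ± 0.22) lay below. Oxidative phosphorylation genes were mostly not called: of 41, 4 were higher and 2 lower, no member of the list lay apart, and the 4 higher were 0 without SMC1 replicate 1 and 2 without SMC2 replicate 2. The 2 lower were 0 without SMC1 replicate 3 and 1 without Intermediate replicate 2, SMC1 replicate 1 or SMC1 replicate 2. The median was 0.06, with 0.19 against Progenitor, 0.63 against Intermediate and -0.55 against SMC2.

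**Figure D4:**
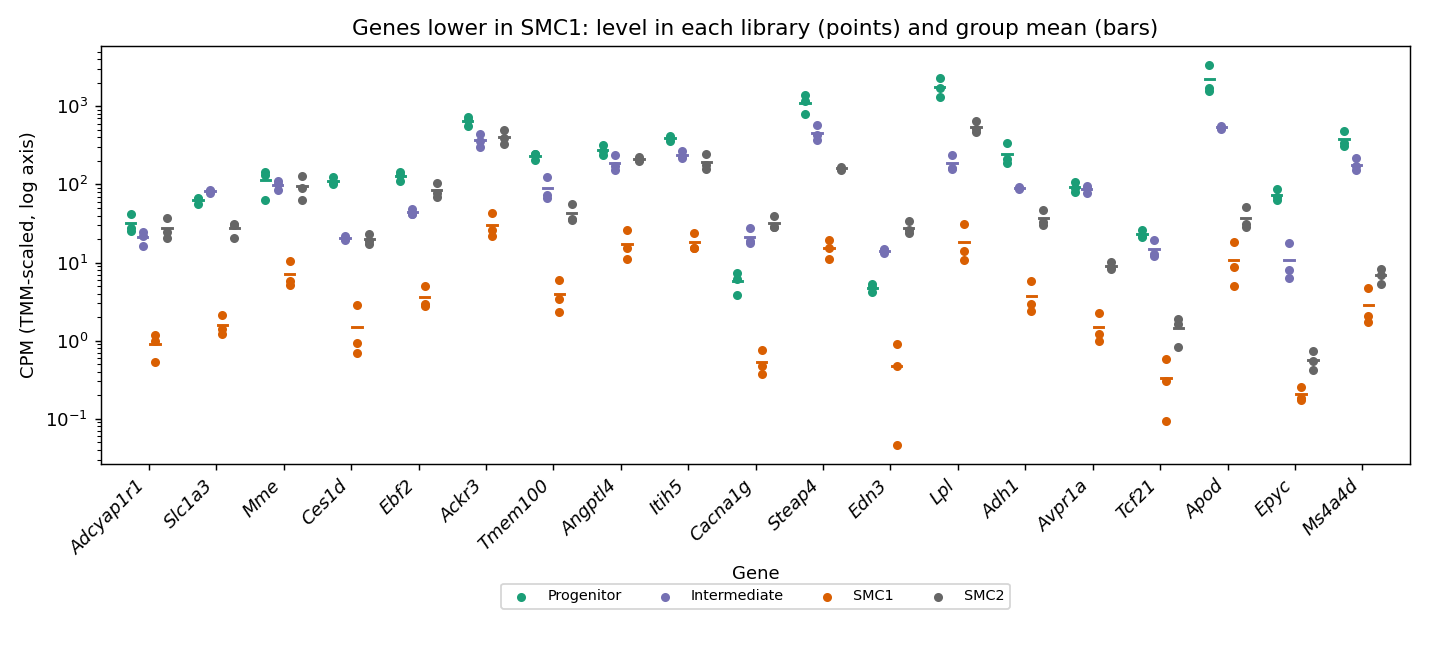
Each point is 1 library's level in CPM on a log axis, and each bar the mean of 3 libraries, for the genes lowest in SMC1 by either ranking. SMC1 (orange) lies below all other libraries for each gene; for Slc1a3, Adcyap1r1 and Ebf2 all 3 other groups are well above it, whereas for Epyc, Apod and Ms4a4d SMC2 is low as well.

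Markers of other cell types were measured in the same libraries. For every marker list, the shares to compare are those of all genes tested, 22.5% called higher and 20.5% lower. Endothelial markers were called higher in 14 of 18 against the mean of the other groups, and none lower. Of the 18, 7 lay above all 9 libraries (9.27% of all genes tested), and 4 were called higher than each group. Without SMC1 replicate 1, 7 were called. Their summed level overlapped SMC2, at 798, 548 and 602 CPM in SMC1 and 565 to 610.2 in SMC2. It was 259 to 415 in Progenitor and 301 to 407 in Intermediate. Pecam1 read 218, 209.9 and 200.4 CPM in SMC1, 22.96, 64.9 and 61.5 in SMC2, 58.2, 65.0 and 50.3 in Intermediate and 27.3, 49.5 and 53.6 in Progenitor, all 3 SMC1 libraries being alike. Erg, an endothelial and chondrocyte transcription factor, read 14.8, 18.5 and 19.7 CPM in SMC1 and at most 3.89 elsewhere, and Cdh5, VE-cadherin, read 11.8, 5.92 and 6.33 and 0.966, 2.52 and 3.06 in SMC1 and SMC2. Their part in the results above was not tested.

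Leukocyte markers were called higher in 9 and lower in 2 of 22, and in 2 and 3 without SMC1 replicate 1. The summed level was 721 CPM in that library, 171 and 179.8 in the other SMC1 libraries, 190.2 to 327 in SMC2, 189 to 220.2 in Progenitor and 137 to 183 in Intermediate. Complement, interferon and antigen presentation genes were called lower against the mean of the other groups with that library and without it. The numbers called lower were 28, 26 and 16 when that library was left out. Pericyte markers were mixed, with 7 higher and 4 lower of 15. Cspg4 (4.04 ± 0.18), Rgs5, Abcc9 (1.83 ± 0.18) and Postn lay above, and Steap4, Anpep (-2.51 ± 0.28) and Ndufa4l2 (-4.44 ± 0.28) below.

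The adipocyte markers summed to 267 to 420.5 CPM in SMC1 and 2851 to 3205 in SMC2, with 180 to 229 in Progenitor and 91.8 to 118 in Intermediate. Adiponectin, Adipoq, read 1.73, 0.373 and 1.58 CPM in SMC1 and 59.7, 96.9 and 114 in SMC2. Cardiac muscle markers summed to 50.6 to 74.2 CPM in SMC1, 129 to 145 in SMC2 and 10.4 to 23.5 in Progenitor and Intermediate, and 5 of 9 tested (14 in the table) were called higher. Schwann and neural markers summed to 59.4 to 96.5 CPM in SMC1 and at least 217 in every other library, although 6 of 15 were called higher and 3 lower (2 higher without SMC1 replicate 1 and 3 without SMC1 replicate 3). Mesothelial markers were lower in 8 and higher in 2 of 18. Their summed level was 616 to 682 CPM in SMC1, 159 to 247 in SMC2, 473 to 536 in Progenitor and 756 to 1106 in Intermediate. By group, the median was 0.06 against Progenitor, -2.41 against Intermediate and 0.62 against SMC2. Chondrocyte and osteoblast markers were higher in 4 and lower in 3 of 14, and erythroid and platelet markers higher in 1 and lower in 2 of 8. That last list held 0 higher without SMC1 replicate 1. It held 1 lower without Intermediate replicate 2 or 3, Progenitor replicate 2 or SMC1 replicate 2 or 3. The shares to set beside the counts of these lists are 22.5% higher and 20.5% lower, those of all genes tested.

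**Figure D5:**
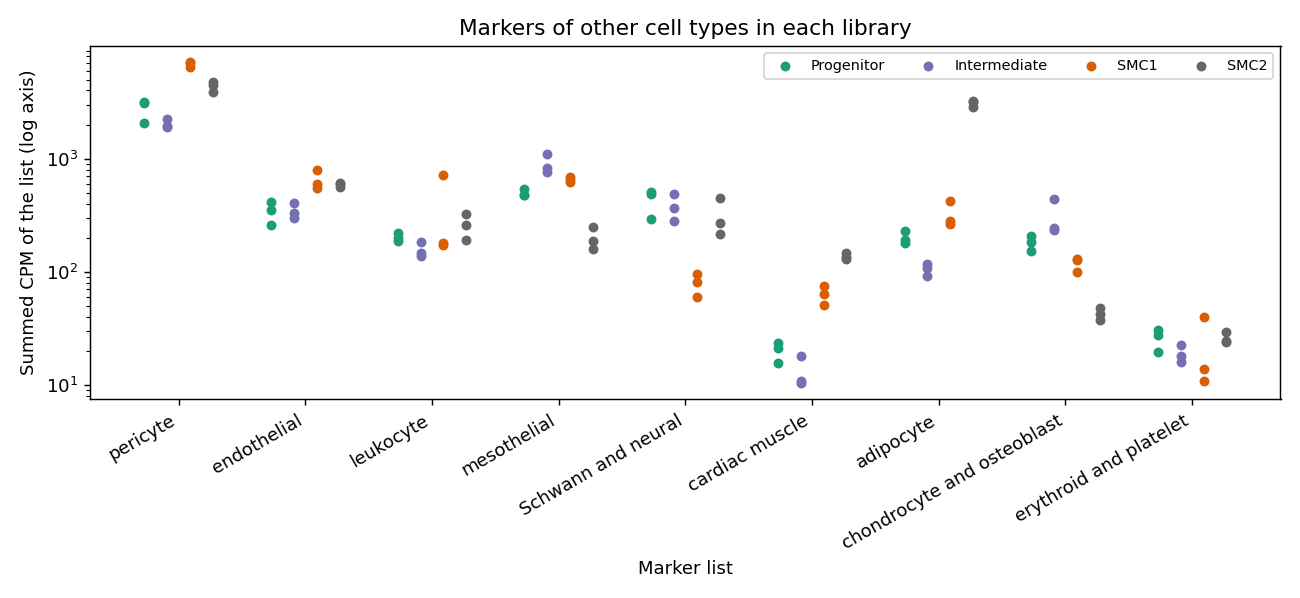
Each point is the summed level in CPM (log axis) of a marker list in 1 library, by population. SMC1 replicate 1 stands at 721 for leukocyte markers, above the other 2 SMC1 libraries at 171 and 179.8; adipocyte markers are highest in SMC2 and pericyte markers highest in SMC1.

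The library kit does not mark strand, so reads of a gene and of one that overlaps it cannot be told apart. Exons of another gene cover at least 10% of the exon length of the following genes named here: Adora1 (20.1%), Asph (14.7%), Bmp5 (46.7%), C1s1 (18.4%), Ccn2 (23.2%), Cebpb (20.7%), Efhd1 (11.95%), Epyc (40.6%), Fstl3 (47.3%), Fzd5 (17.8%), Htr1b (18.04%), Itga10 (33.5%), Npr1 (11.7%), Prc1 (11.1%), Ptger4 (16.5%), Shroom3 (24.9%), Smtn (16.3%), Tbx18 (20.6%), Uchl1 (18.1%) and Vcl (25.5%). Of the members named, Abcc9, Bmp5, Fzd5, Sema3d and Sspn were not called against Intermediate, and Sema3g was not called against Progenitor. Those not called against SMC2 were Acta2, Actg2, Anpep, Bambi, Cidea, Efnb1, Epyc, Irf7, Itga10, Kcnip3, Klf5, Myl4, Myoz1, Ppp1r14a, Ptger4, Snai1, Susd5, Tnnt2 and Xirp1.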

How the data were processed

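Bulk RNA was measured in 12 libraries (SMART-Seq v4, poly(A), no strand information, per the labels' protocols). Per the submitters' processing notes, reads were aligned with STAR 2.5.2a to mm10; the counting program and annotation are not given in the sources used here. The authors deposited whole-number read counts per gene, used for every main value. They also deposited normalized counts, a signal made by dividing counts by 1 factor per library (DESeq2 1.26.0 per the submitters' processing notes), and regularized log2 values, which served as an alternative. All 12 columns matched a sample.

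Symbols came from GENCODE M21 (GRCm38), which matched 33323 of 33352 gene IDs; 12078 rows had no deposited symbol. edgeR 4.0.16 in R 4.3.3 filtered genes (filterByExpr), scaled by TMM and fitted robust quasi-likelihood models with 4 group means (common biological coefficient of variation 0.206, 8 residual degrees of freedom). Every adjusted p is from that edgeR test, two-sided, with Benjamini-Hochberg adjustment over 19016 genes. The script recovered known changes when tested on simulated data. There the 4 groups were alike except for a small set of genes changed in SMC1. These data differ far more widely between groups, so scaling under such differences was not tested. Alternatives used limma 3.58.1, DESeq2 1.42.0, other scalings and filters, and each library left out. Depth was 13258631 to 22647175 counts; chi-square tests found replicates to differ beyond sampling noise.

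Named genes are the 3 markers, the 12 highest and 12 lowest members by the overall difference and by the difference from the nearest group (mean log2 CPM of at least 4 on the higher side, predicted models passed over), and, per list, every member plus up to 4 genes with the smallest adjusted p. A few of these genes are left unreported. The members and the gene lists were chosen with earlier results of these data known.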

Additional observations from a re-analysis of the deposited data

How the results depend on the processing

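The numbers of genes called higher and lower stayed within 1.5 times of those reported under every alternative except 2: requiring at least 2-fold, which left 1822 higher, and the 2-group fit, which pools the 9 other libraries as 1 group with their differences as error. The 2-group fit called 1340 higher and 1366 lower, of which 2706 were called in the same direction as reported. Under it 97 of 346 named genes lost their call and 246 kept it. Those that lost it included the markers Xirp1 and Susd5, the contractile genes Acta2, Myh11, Cnn1 and Myocd, and Ccl11. The 2-group fit also turned 3 named genes, none of them called: Pln to -2.512, Esam to -0.816 and P2rx1 to -1.268. Leaving out 1 library gave 3309 to 4362 higher and 3220 to 4174 lower, 1801 to 2308 genes above and 1392 to 1981 below, and 950 to 1245 higher and 849 to 1093 lower than each group; fewer libraries to clear makes lying apart easier. Upper-quartile scaling shifted the median of all genes to -0.11 and gave 3524 higher and 4571 lower, with 1478 genes above and 1664 below. DESeq2 called 4122 higher and 4183 lower, and limma on the deposited log2 values 4104 and 4273. No alternative gave a called gene the opposite sign of a reported call. With replicate number as a block, 4392 genes were higher and 4150 lower (1257 and 1150 against each group), and 345 of 346 named genes kept their call. Same-numbered libraries correlated, as deviations from group means, at 0.0246 to 0.267 with Progenitor, 0.0786 to 0.194 with Intermediate and 0.0469 to 0.159 with SMC2; each SMC1 library correlated best with its own number for SMC2, but not for the other groups. Same-numbered Progenitor and Intermediate libraries correlated at 0.170 to 0.191. The range was -0.00524 to 0.346 for Intermediate with SMC2 and -0.0177 to 0.120 for Progenitor with SMC2. A shared number may pair some libraries, but pairing is not established for SMC1 or for any other group. The cause of these shifts was not tested. Depth limits the lowest members, such as Nkx2-3, with 2.09, 1.07 and 2.64 CPM in SMC1.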

Other observations

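Apart from Erbb4, the genes named here were chosen after their values were seen, and they stand in no list above. Among genes of the EGF family, 2 ligands lay above all 9 other libraries: epiregulin, Ereg, read 15.8, 20.1 and 21.3 CPM in SMC1 and 1.24, 4.001 and 1.80 in SMC2, betacellulin, Btc, read 24.3, 23.3 and 23.5 and 3.45, 6.32 and 3.36, and the receptor Erbb4 is described above. The ligand Hbegf was called higher at 0.71 ± 0.12 but lay below SMC2, at -1.001 ± 0.16, and Nrg1, at -0.31 ± 0.47, was not called. The receptor Egfr was lower at -0.89 ± 0.16 but higher than in SMC2, and Erbb2 and Erbb3 were not called by edgeR's test. Muscle genes outside the lists were above too: the kinase Mylk2 (4.72 ± 0.25), the muscle caveolin Cav3 (3.68 ± 0.19), the membrane repair gene Dysf (3.86 ± 0.19) and the adherens junction gene Pgm5 (4.44 ± 0.21). Chrna1, a muscle acetylcholine receptor subunit, and Bche, butyrylcholinesterase, both differed by 3.68 (standard errors 0.27 and 0.21). Actin and focal adhesion genes above included Fblim1, at 1783, 1644 and 2250.4 CPM in SMC1 and 192, 325 and 253 in SMC2, Zyx (2.30 ± 0.17), Tns1 (2.67 ± 0.17) and Pls3 (2.16 ± 0.15).

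The progesterone receptor Pgr (4.75 ± 0.24) and the tendon factor Scx (4.33 ± 0.21) lay above all 9 libraries at low levels, and the matricellular gene Ccn3 at high ones, with 3107, 2557 and 3062 CPM in SMC1 and 787, 754 and 643 in Intermediate. The oxidase Nox4 (2.54 ± 0.18) and prostacyclin synthase, Ptgis (2.44 ± 0.18), were above as well, while the prostacyclin receptor was below. Insulin-like growth factor binding proteins split: Igfbp2 was above at 3.31 ± 0.29, and Igfbp3 (-2.91 ± 0.18), Igfbp4 (-2.49 ± 0.23) and Igfbp5 (-2.10 ± 0.26) were below. The imprinted transcripts Meg3 (-2.46 ± 0.24) and Rian (-2.50 ± 0.19) and the imprinted gene Ndn (-2.16 ± 0.19) were below. The VIP receptor Vipr2 read 7.02, 8.25 and 9.02 CPM in SMC1 against 532, 432 and 426 in Intermediate. Vegfa was below at -2.04 ± 0.15.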
